A study of Mus musculus with 12 samples.

Results

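The genes described here are 35 type I interferon-stimulated genes, chosen as a list of symbols and found by name in the raw count table of inguinal white adipose tissue (iWAT). All 35 were listed among 54134 genes, and all 35 had enough reads to be tested, among 15585 genes tested. They had 25 to 3921 reads per mouse. The comparison was between 6 AAV-GFP mice and 6 AAV-Notum mice, all male C57BL/6J. At 8 weeks of age each mouse received, through the tail vein, an adeno-associated virus (AAV) carrying either green fluorescent protein (GFP) or mouse Notum, an enzyme that inactivates secreted Wnt proteins. Both viruses used a human thyroxine binding globulin promoter, which is specific to the liver, and fat was not their target. The mice ate chow for 4 weeks and fasted for 4 h before the tissue was taken at 12 weeks of age. The control mice thus also carried an AAV, and mice without virus were not analysed here, so that an effect of the virus shared by both groups cannot be seen.

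Type I interferons are secreted proteins that bind the receptor made of Ifnar1 and Ifnar2. The kinases Jak1 and Tyk2 then activate STAT proteins, among them Stat2, which join Irf9 and bind a short element in the promoters of interferon-stimulated genes. The products of these genes sense viral nucleic acids, block steps of viral replication or tune the signal itself. Many are transcribed at a low level without infection, in immune cells as well as in fat cells and blood vessels.

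Total counts ran from 15266635 to 21618860 per AAV-GFP mouse and from 14711113 to 17838229 per AAV-Notum mouse. Levels are given as CPM, the usual unit for counts of a gene scaled to a common library size, with library sizes corrected by edgeR's TMM method. RNA integrity numbers lay between 5.7 and 7.6 in the controls (the AAV-GFP mice) and between 6.9 and 7.4 in AAV-Notum mice. RNA of AAV-GFP-2012 was isolated on day 28 of the month and that of the other mice on day 8. The 10 adipocyte markers summed to 45233 to 80928 CPM in the control group and 41172 to 94867 CPM in the AAV-Notum group, as fits the labelled tissue. The mice differed in lymphoid transcripts. Cd79a, a part of the B cell receptor, was at 0.28 CPM in AAV-GFP-2011 and 0.18 CPM in AAV-GFP-2014, against 36.3 to 178 CPM in the other 10 mice, so the comparison was also made among those 10 (4 AAV-GFP and 6 AAV-Notum). In addition, Notum itself had 560 reads (29.3 CPM) in iWAT of AAV-Notum-2032 and 433 reads (26.6 CPM) in AAV-Notum-2041, and 1 to 17 reads in the other 10 mice. Results are therefore also given without these 2 mice.

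In all 12 mice, 34 of the 35 genes had a higher fitted level in AAV-Notum mice. Their median log2 fold change was 0.56, from -0.08 for Ifitm3 to 1.13 for Oas3, against a median of 0.0077 and 51.2% of genes higher over all 15585 genes. No member passed an adjusted p of 0.05 in edgeR's quasi-likelihood test (0 of 35 higher and 0 lower), where 0% of all genes were called higher and 0.0513% lower. The smallest adjusted p among the members was 0.101. At an unadjusted p under 0.05, 18 members were higher (51.4%) and 0 were lower, beside 4.64% of all genes higher and 9.54% lower. DESeq2 called 8 members higher at an adjusted p of 0.05 (Rtp4, Ifi44, Irf7, Ifit2, Ifit3, Isg15, Bst2 and Ifit3b), beside 0.531% of all genes, and limma-voom called 0. In 3 genes, Rtp4, Ifi44 and Ifit2, every AAV-Notum mouse lay above every AAV-GFP mouse, beside 0.398% of all genes. In bulk tissue, more RNA per cell and more cells of a type that expresses a gene cannot be told apart.

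**Figure D1:**
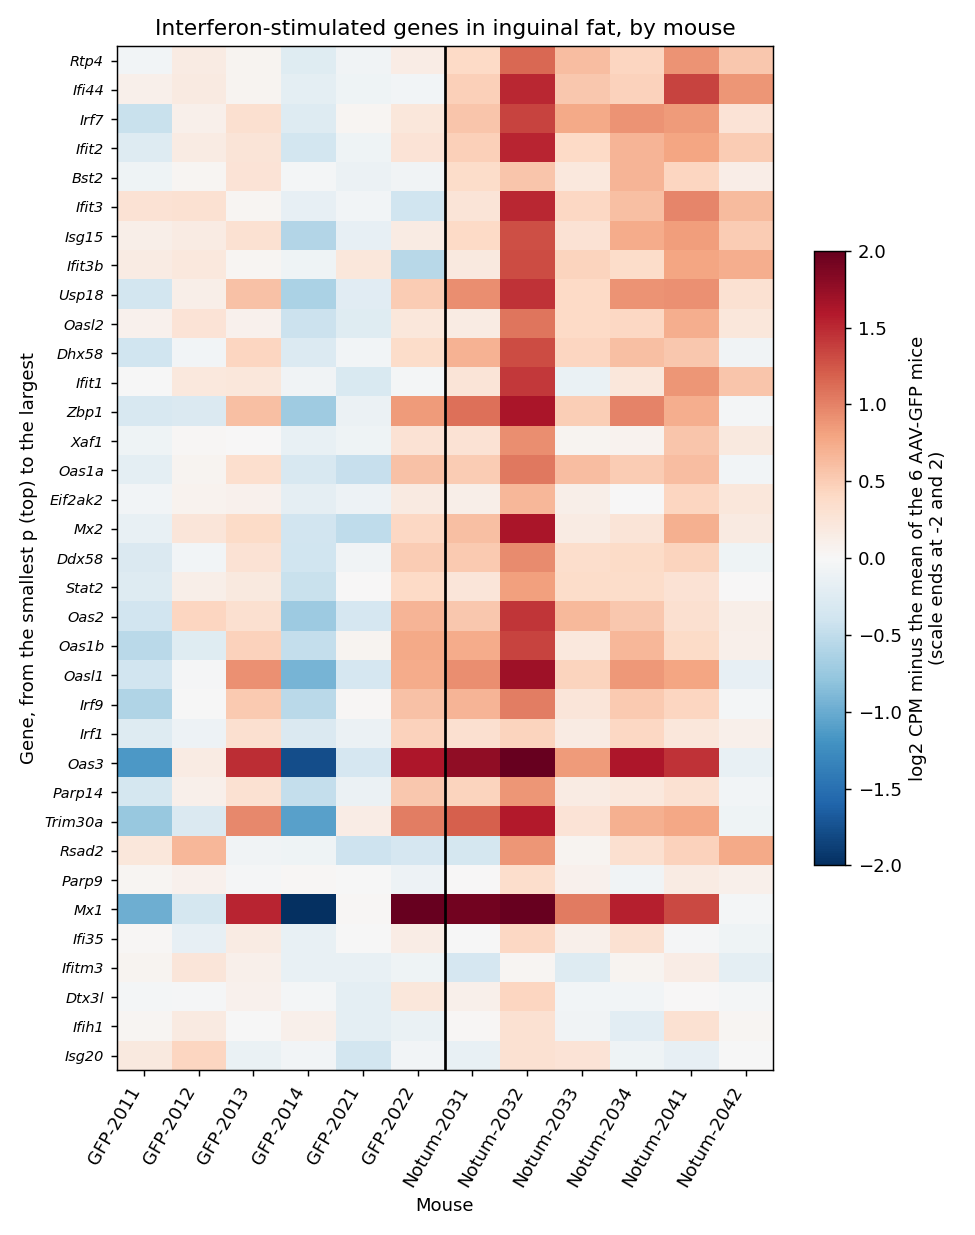
Level of each of the 35 genes (rows, ordered from the smallest to the largest p) in each of the 12 mice (columns), as log2 CPM minus the mean of the 6 AAV-GFP mice; red is higher, blue is lower, and colours end at a difference of 2 either way. The column of AAV-Notum-2032 is the reddest, and Mx1, Oas3 and Trim30a vary among the AAV-GFP mice as widely as between the groups.

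**Figure D2:**
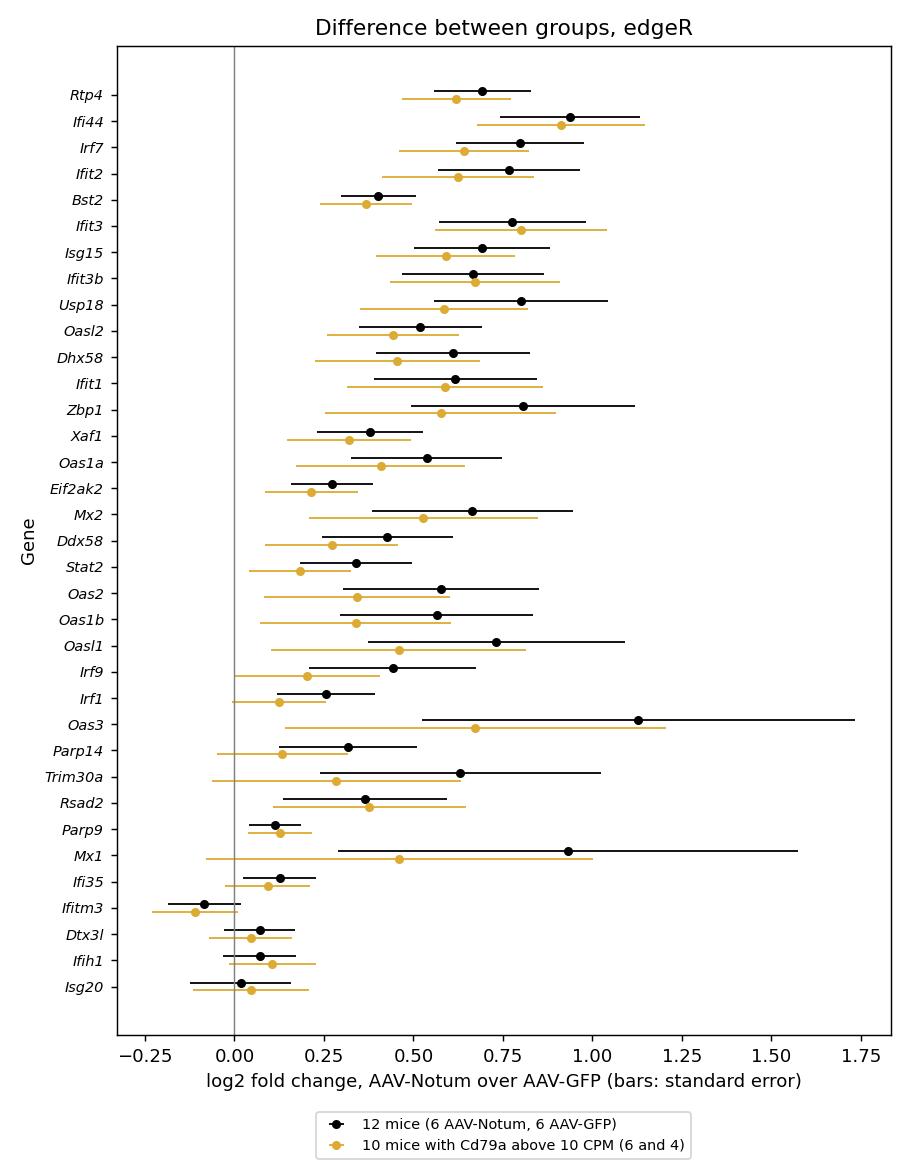
Log2 fold change of each gene, AAV-Notum over AAV-GFP, from edgeR with its standard error as a bar, in all 12 mice (black) and in the 10 mice with Cd79a above 10 CPM (yellow). In 34 of 35 genes the point lies right of 0 in both fits, and in 29 genes the yellow point lies left of the black one.

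The promoters of these genes are known for the element that the complex of Stat2 and Irf9 binds. RefSeq windows of 250 bases before the gene start (GRCm38.p6) were matched by symbol for 25 of the 35 members. They were searched on both strands for GAAA followed, after any 2 bases, by GAAA, and matches may overlap. Of the 25 matched members, 10 held it (40%), beside 936 of 27025 genes with a window (3.46%). Windows are shown for the 5 such members of smallest p, since these are among the genes with the clearest difference between groups. Each reads 5′ to 3′ along the gene's strand, with 20 flanking bases or as many as the window left, and capitals mark the motif or its reverse complement (TTTC, any 2 bases, TTTC).
Bst2 (chr8:71537567-71537622, minus strand): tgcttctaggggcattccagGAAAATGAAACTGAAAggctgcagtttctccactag
Ifit3 (chr19:34583353-34583436, plus strand): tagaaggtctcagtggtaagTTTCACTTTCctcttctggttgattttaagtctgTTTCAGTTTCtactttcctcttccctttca
Isg15 (chr4:156200855-156200916, minus strand): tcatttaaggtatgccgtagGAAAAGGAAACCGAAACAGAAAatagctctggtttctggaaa
Ifit3b (chr19:34607749-34607832, plus strand): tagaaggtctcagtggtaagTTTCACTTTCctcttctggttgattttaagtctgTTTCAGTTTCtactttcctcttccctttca
Ifit1 (chr19:34640765-34640833, plus strand): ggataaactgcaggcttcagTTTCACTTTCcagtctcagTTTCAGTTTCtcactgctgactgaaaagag
The Ifit3 and Ifit3b windows have the same bases, with 2 matches each. Isg15 has 3 overlapping matches, which begin 78 bases before the gene start, and Bst2 and Ifit1 have 2 each. Rsad2, Oas1a, Oas3, Stat2 and Trim30a also held a match. Ifi44, Irf7 and Ifit2, which lie among the 8 members of smallest p, held none of these letters in this window, and Rtp4 was not matched. A match is a description of the sequence and not of binding.

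Among the transcription factors, Irf7, which turns on interferon genes in a feed-forward loop, differed most. Irf7 (ENSMUSG00000025498, chromosome 7, 141262706 to 141266481 of GRCm38) lay at 51.1, 73.4 and 87.1 CPM (lowest, median and highest) in AAV-GFP mice and at 84.2, 122 and 178 CPM in AAV-Notum mice. Of the 6 AAV-Notum mice, 5 were above every AAV-GFP mouse, and AAV-Notum-2042 overlapped the controls. The means were 70.9 ± 13.8 CPM and 123 ± 31.9 CPM (SD, n = 6 each), a log2 fold change of 0.80 (standard error 0.18, p = 7.59e-04, adjusted p = 0.124 by edgeR; two-sided exact permutation test, p = 0.00433).

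Stat2 and Irf9, partners in the complex that binds the element, overlapped more. Stat2 (chromosome 10, 128270559 to 128292849) lay at 51.8, 73.6 and 93.0 CPM in the control group and 71.2, 88.3 and 124 CPM in the AAV-Notum group. AAV-Notum-2032 alone was above every control, and the log2 fold change was 0.34 (standard error 0.16, p = 0.0506, adjusted p = 0.353 by edgeR; exact permutation p = 0.0628). Irf9 (chromosome 14, 55603571 to 55610030) lay at 37.8, 57.7 and 86.3 CPM in the control group and 55.5, 79.9 and 116 CPM in the AAV-Notum group. Only 2 AAV-Notum mice exceeded the highest control, and the log2 fold change was 0.44 (standard error 0.23, p = 0.0821, adjusted p = 0.398 by edgeR; exact permutation p = 0.0931). Irf1, a factor induced by both type I and type II interferon, lay on chromosome 11 from 53770014 to 53778374. It was at 93.4, 106 and 157 CPM in the control group and 123, 138 and 156 CPM in the AAV-Notum group, where no AAV-Notum mouse exceeded the highest control. Its log2 fold change was 0.26 (standard error 0.14, p = 0.0851, adjusted p = 0.400 by edgeR; exact permutation p = 0.0758). In Stat2, Irf9 and Irf1 the groups thus overlapped, and each had a p over 0.05 in both tests. For Stat2 the edgeR p was near that threshold, and DESeq2 gave an unadjusted p of 0.0497 (adjusted p = 0.304).

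Rtp4, an interferon-induced chaperone of membrane receptors, had the smallest p of the 35. Rtp4 (ENSMUSG00000033355, chromosome 16, 23520291 to 23614222) lay at 24.9, 29.5 and 33.2 CPM in the control group and at 38.9, 44.1 and 65.9 CPM in the AAV-Notum group. The groups did not overlap, and AAV-Notum-2032 and AAV-Notum-2041 were the highest. The means were 29.7 ± 3.15 CPM and 48.0 ± 10.6 CPM (SD, n = 6 each), with a log2 fold change of 0.69 (standard error 0.14, p = 2.35e-04, adjusted p = 0.101 by edgeR; exact permutation p = 0.00216, the smallest that 6 mice against 6 can give). Of the Rtp4 exon sequence, 11.6% of 50-base windows also occur in Gm45338, an overlapping gene, so that part of its reads could be counted for either.

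Ifi44, a cytoplasmic protein induced by type I interferon, also had groups that did not overlap. Ifi44 (ENSMUSG00000028037, chromosome 3, 151730922 to 151749960) lay at 6.08, 6.98 and 7.92 CPM in the control group and at 9.62, 11.5 and 20.01 CPM in the AAV-Notum group. The same 2 AAV-Notum mice were highest, at 20.01 and 17.97 CPM. The log2 fold change was 0.94 (standard error 0.20, p = 4.25e-04, adjusted p = 0.105 by edgeR; exact permutation p = 0.00216). Bst2, or tetherin, holds budding virus at the cell surface. Bst2 (ENSMUSG00000046718, chromosome 8, 71534255 to 71537456) lay at 56.3, 59.2 and 74.4 CPM in the control group and at 67.0, 80.8 and 98.2 CPM in the AAV-Notum group. Of the AAV-Notum mice, 4 were above every control, and AAV-Notum-2034 was the highest. The log2 fold change was 0.40 (standard error 0.10, p = 0.00224, adjusted p = 0.151 by edgeR; exact permutation p = 0.00649).

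The IFIT proteins bind viral RNA, and their genes lie side by side on chromosome 19. Ifit2 (ENSMUSG00000045932, 34550694 to 34576419) lay at 15.1, 20.2 and 23.5 CPM in the control group and at 25.7, 29.5 and 56.1 CPM in the AAV-Notum group. The groups did not overlap, although 1 mouse, AAV-Notum-2032, stood far above the rest. Its log2 fold change was 0.77 (standard error 0.20, p = 0.00217, adjusted p = 0.150 by edgeR; exact permutation p = 0.00216). Ifit3 (ENSMUSG00000074896, 34583531 to 34588731) lay at 17.2, 22.6 and 28.1 CPM in the control group and at 27.3, 35.01 and 64.6 CPM in the AAV-Notum group. AAV-Notum-2031 lay within the controls and the other 5 were above them. Its log2 fold change was 0.78 (standard error 0.21, p = 0.00254, adjusted p = 0.152 by edgeR; exact permutation p = 0.00649). Ifit3b (ENSMUSG00000062488, 34607970 to 34613401) lay at 4.93, 7.87 and 8.63 CPM in the control group and at 8.43, 11.1 and 18.2 CPM in the AAV-Notum group, with AAV-Notum-2031 again within the controls. Its log2 fold change was 0.67 (standard error 0.20, p = 0.00535, adjusted p = 0.181 by edgeR; exact permutation p = 0.00649). Of the 50-base windows, as long as the reads, 51.2% of those in Ifit3 also occur in Ifit3b, so the split of reads between these genes is uncertain and they are not independent. Ifit1 had a log2 fold change of 0.62 (adjusted p = 0.264 by edgeR; exact permutation p = 0.0498).

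Isg15 is a ubiquitin-like protein that is attached to other proteins, and Usp18 removes it and dampens the receptor. Isg15 (ENSMUSG00000035692, chromosome 4, 156199424 to 156200818) lay at 7.33, 12.1 and 13.6 CPM in the control group and at 13.5, 17.1 and 27.1 CPM in the AAV-Notum group. The groups overlapped in 1 AAV-Notum mouse, AAV-Notum-2033. The log2 fold change was 0.69 (standard error 0.19, p = 0.00336, adjusted p = 0.163 by edgeR; exact permutation p = 0.00433). In Usp18 it was 0.80 (standard error 0.24, adjusted p = 0.197 by edgeR; exact permutation p = 0.0130), and 4 AAV-Notum mice were above every AAV-GFP mouse.

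**Figure D3:**
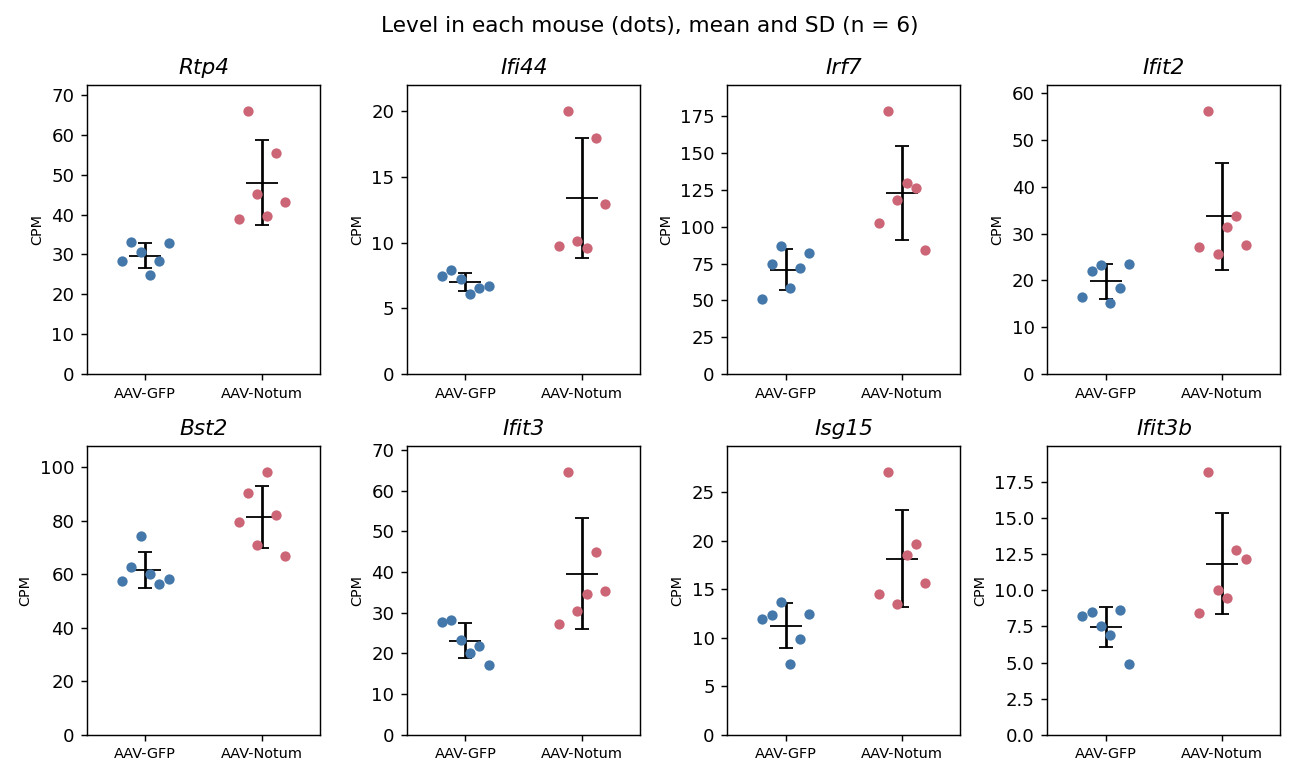
CPM of the 8 genes of smallest p in each mouse (dots; 6 AAV-GFP in blue, 6 AAV-Notum in red), with the group mean and SD as bars, on linear axes from 0. Rtp4, Ifi44 and Ifit2 show no overlap between groups, and 1 AAV-Notum mouse, AAV-Notum-2032, is the highest in 7 of the 8.

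The RNA sensors and antiviral enzymes differed among themselves. Among the sensors, log2 fold changes were 0.81 for Zbp1 (Z-form nucleic acids), 0.61 for Dhx58 (LGP2), 0.43 for Ddx58 (RIG-I) and 0.27 for Eif2ak2 (PKR), all with an unadjusted p under 0.05 in edgeR. Among the 10 mice with Cd79a above 10 CPM, their unadjusted edgeR p was 0.103, 0.0754, 0.172 and 0.127, in the same order. Ifih1 (MDA5) was at 42.6 ± 4.24 CPM and 44.7 ± 6.29 CPM (SD, n = 6 each), a log2 fold change of 0.07. Of the 2′-5′ oligoadenylate synthetase family, some members of which activate RNase L, Oasl2 (0.52) and Oas1a (0.54) had an unadjusted p under 0.05. For Oas1a it was 0.111 by edgeR among those 10 mice. Oas1b (0.56), Oas2 (0.58), Oasl1 (0.73) and Oas3 (1.13) did not. Oas3 had the largest fold change of all members and also a wide spread, 1.49 to 16.6 CPM in the control group and 4.86 to 35.5 CPM in the AAV-Notum group. In Oas1a, 57.6% of 50-base windows also occur in Oas1g, so these genes may share reads.

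Mx1 and Mx2 encode dynamin-like GTPases, and the C57BL/6 allele of Mx1 is known to make no working protein. Mx1 ran from 1.67 to 34.7 CPM in the control group and from 8.16 to 48.4 CPM in the AAV-Notum group, with a log2 fold change of 0.93 (standard error 0.64, exact permutation p = 0.0996). Mx2 had a log2 fold change of 0.66 (exact permutation p = 0.0541) and Xaf1, a partner of an apoptosis inhibitor, 0.38 (exact permutation p = 0.0303). The difference in Rsad2 (viperin) was 0.36 (p = 0.180), in Trim30a 0.63 (p = 0.123) and in Parp14, an ADP-ribosyltransferase, 0.32 (p = 0.147), all by exact permutation tests and with overlapping groups.

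The smallest differences, beside that of Ifih1, were in Parp9 (log2 fold change 0.11), its partner Dtx3l (0.07), Ifi35 (0.13), the exonuclease Isg20 (0.02) and Ifitm3 (-0.08), which blocks the fusion of entering virus. Parp9 and Dtx3l overlap on opposite strands (9.4% of Parp9 exon bases), as do Ifi35 and Gm11626 (16.8% of Ifi35), so that without a stated strand setting part of their reads could be counted for either gene. Ifitm3 was the most abundant member per length, at 155 ± 17.0 RPKM (CPM divided by the exon length in kilobases; SD, n = 6) in AAV-GFP mice and 146 ± 19.8 RPKM in AAV-Notum mice. Bst2 followed at 68.2 ± 7.41 and 90.1 ± 12.9 RPKM, and Irf1 at 29.4 ± 6.74 and 35.1 ± 3.38 RPKM. The least abundant members in AAV-GFP mice were Oas3, at 1.08 ± 0.93 RPKM, and Ifi44, at 1.14 ± 0.11 RPKM, which did not differ from each other there beyond their spread. In AAV-Notum mice Oas3 was at 2.36 ± 1.48 RPKM and Ifi44 at 2.19 ± 0.74 RPKM.

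Levels also differed between mice of the same group. AAV-Notum-2032 was the highest of the 12 mice in 30 of 35 members and among the top 2 in 34, and AAV-Notum-2041 was second in 13. AAV-GFP-2014 was the lowest in 18. Relative to the AAV-GFP mean, the median over the 35 genes was 1.15 (log2) in AAV-Notum-2032, 0.55 in AAV-Notum-2041, and 0.10 to 0.42 in the other 4 AAV-Notum mice. It was -0.29 to 0.28 in the AAV-GFP mice. AAV-Notum-2042, at 0.10, and AAV-Notum-2033, at 0.28, thus lay within or near the range of the controls.

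Without AAV-Notum-2032, 32 members were higher, the median log2 fold change was 0.37, and 12 members had an unadjusted p under 0.05, beside 3.78% of all genes. Without both mice that had more than 1 CPM of Notum in iWAT, 31 members were higher, with a median of 0.36, and 9 had an unadjusted p under 0.05, beside 3.09% of all genes. Rtp4, Ifi44 and Irf7 then had log2 fold changes of 0.49, 0.60 and 0.62.

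Over the 12 mice, the sum of hepatocyte markers was not highest in the mice where the members were highest. The sum of 10 hepatocyte markers was 294 CPM in AAV-Notum-2032 and 1003 CPM in AAV-Notum-2041, and the highest sums were 6086 CPM in AAV-GFP-2013 and 1894 CPM in AAV-GFP-2014. Within the AAV-Notum group AAV-Notum-2041 had the highest sum, against 176 to 415 CPM in the other 5 mice. Skeletal muscle markers summed to 5133 CPM in AAV-Notum-2042 and 19.6 to 1067 CPM in the other mice. With the muscle and hepatocyte marker levels as covariates, 22 members were higher at an unadjusted p under 0.05, beside 4.87% of all genes.

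**Figure D4:**
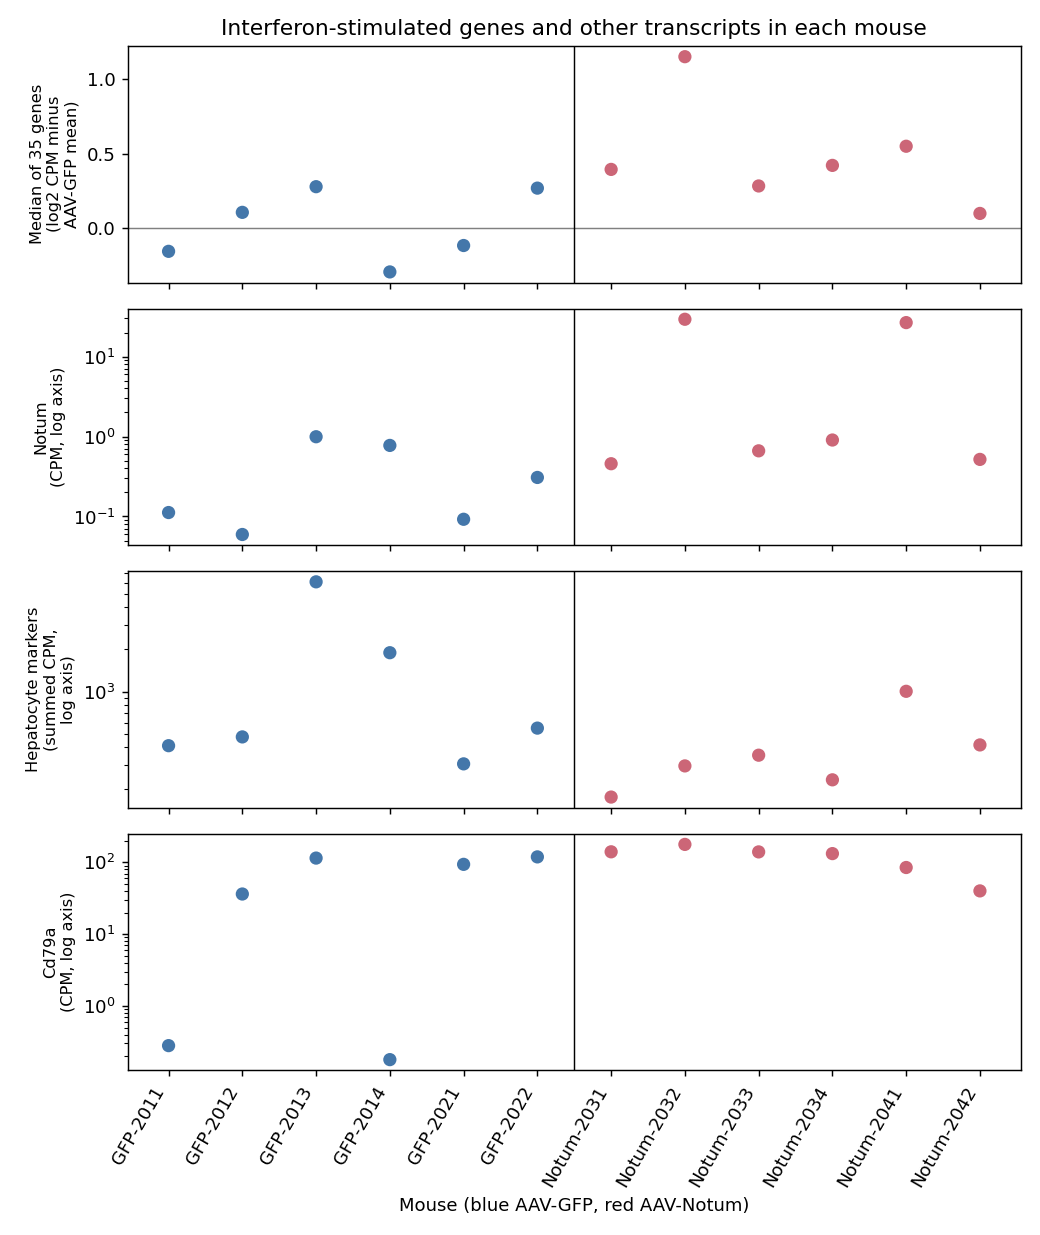
For each mouse (AAV-GFP in blue, AAV-Notum in red), from top to bottom: the median over 35 genes of log2 CPM minus the AAV-GFP mean, then, on log axes, Notum, the summed hepatocyte markers and Cd79a, all in CPM. Both mice with Notum near 29.3 and 26.6 CPM have the highest medians, 1.15 and 0.55, and both mice with Cd79a under 1 CPM are AAV-GFP.

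Lymphoid transcripts differed widely between mice. Summed B cell markers (11 genes) ran from 11.4 to 1577 CPM in the control group and from 536 to 2480 CPM in the AAV-Notum group. T cell markers (12 genes) ran from 8.34 to 838 CPM and from 235 to 1017 CPM. AAV-GFP-2011 and AAV-GFP-2014 had the lowest sums of both, with B cell sums of 19.8 and 11.4 CPM. Each B cell marker had reads in every mouse, and of the T cell markers Cd28 was the 1 that reached 0. All 11 B cell and all 12 T cell markers had a higher fitted level in AAV-Notum mice. Both lists had a median difference of 0.99 (log2). By edgeR, 0 of the 11 and 0 of the 12 had an unadjusted p under 0.05 between groups. Summed markers of plasmacytoid dendritic cells, known as strong producers of type I interferon, ran from 221 to 453 CPM and from 343 to 541 CPM. Of the 9 of these markers tested, 8 had a higher fitted level in AAV-Notum mice (median log2 fold change 0.91) and 0 had an unadjusted p under 0.05. Macrophage markers summed to 572 to 1645 CPM and 975 to 1803 CPM, in large part Lyz2, at 555 ± 285 CPM and 826 ± 199 CPM (SD, n = 6 each). Of the 12 macrophage markers 4 had a higher fitted level (median log2 fold change -0.10), and at an unadjusted p under 0.05 there were 0 higher and 2 lower, Cd163 (-0.94, exact permutation p = 0.00216) and Mrc1 (-0.40, exact permutation p = 0.0693), named after their values were seen. For these lists too, the shares over all genes were 4.64% higher and 9.54% lower.

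Markers of other cells were also compared between the groups, and 0 passed an adjusted p of 0.05 by edgeR. The genes named here were named after their values were seen. Of 10 fibroblast and progenitor markers, 0 were higher and 4 lower at an unadjusted p under 0.05 (edgeR), beside 9.54% of all genes lower: the receptor gene Pdgfra (-0.49, exact permutation p = 0.00649) and the matrix genes Col1a1 (-0.52, exact permutation p = 0.00866), Dpt (-0.76, exact permutation p = 0.0433) and Dcn (-0.39, exact permutation p = 0.0216). Of 10 endothelial markers, 9 had a lower fitted level (median of the list -0.34). The 3 with an unadjusted p under 0.05 (edgeR) were Esam (-0.51, exact permutation p = 0.0260), Tie1 (-0.42, exact permutation p = 0.0519) and Tek (-0.50, exact permutation p = 0.0584). All 10 hepatocyte markers had a lower fitted level. Of these, 2 had an unadjusted p under 0.05 (edgeR), Alb (-2.83, exact permutation p = 0.108) and Serpina1a (-2.80, exact permutation p = 0.258). Of the 88852 Alb reads over the AAV-GFP mice, 65022 were in 1 mouse. By contrast, 0 of the 10 muscle markers, all with a higher fitted level, and 0 of the 10 adipocyte markers reached that threshold. Of 8 markers of conventional dendritic cells, 6 had a higher fitted level (median of the list 0.50). By edgeR, 0 were higher and 1 lower at an unadjusted p under 0.05, beside 9.54% of all genes lower. The lower gene was Zbtb46 (-0.23, exact permutation p = 0.00216), without overlap. The part of such differences in the cells of the tissue in the members' levels was not tested.

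Within the AAV-GFP mice, the 35 genes varied in how far they differed between the 4 Cd79a-rich mice (above 10 CPM) and the 2 Cd79a-poor ones. Of these 2, AAV-GFP-2011 also had the lowest RNA integrity number, 5.7. In 16 of 35, all 4 Cd79a-rich AAV-GFP mice were above both Cd79a-poor ones, beside 25.8% of all genes, and the median log2 difference was 0.38, against 0.016 over all genes. Mx1 was 5.36 times as high in the Cd79a-rich controls (geometric means), Oas3 4.57 times, Trim30a 2.60 times, Oasl1 1.97 times and Irf9 1.80 times. For 12 members the ratio was under 1.1, among them Ifi44 (1.05), Bst2 (1.07), Ifit1 (1.05), Ifit3 (0.94), Rsad2 (0.93) and Isg20 (0.93). Rtp4 was at 1.17 and Irf7 at 1.44. With 4 mice against 2, these ratios are given as a description with no test.

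**Figure D5:**
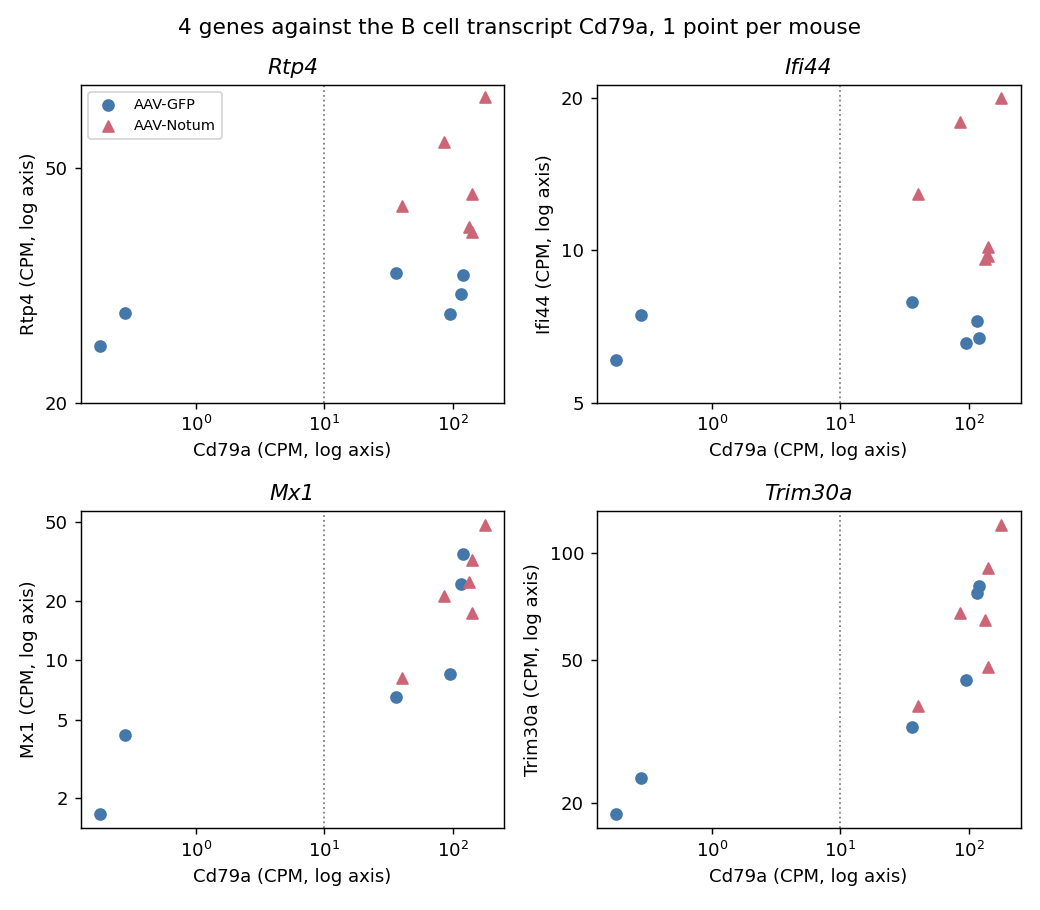
CPM of Rtp4, Ifi44, Mx1 and Trim30a against Cd79a in each mouse, on log axes (AAV-GFP circles, AAV-Notum triangles; the dotted line is 10 CPM of Cd79a). Rtp4 and Ifi44 are higher in every AAV-Notum mouse than in any AAV-GFP mouse, 4 AAV-Notum mice have more Cd79a than any AAV-GFP mouse, and Mx1 and Trim30a are lowest in the AAV-GFP mice with Cd79a under 1 CPM.

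Among the 10 mice with Cd79a above 10 CPM, 34 of 35 members were again higher in the AAV-Notum group. Their log2 fold changes had a median of 0.38, against 0.0074 over the 15994 genes tested. Lymphoid markers still had higher fitted levels in AAV-Notum mice. Their log2 fold changes had medians of 0.41 for B cells, 0.41 for T cells and 0.43 for plasmacytoid dendritic cells, with 0 of each at an unadjusted p under 0.05 by edgeR. The fold change was smaller than in the 12 mice for 29 members. By edgeR, 0 members passed an adjusted p of 0.05, beside 0% of all genes higher and 0.00625% lower. At an unadjusted p under 0.05, 10 members were higher (28.6%) and 0 lower, beside 2.16% and 4.95% of all genes. DESeq2 called 0 members at an adjusted p of 0.05, beside 0.0566% of all genes, and 11 at an unadjusted p under 0.05, beside 1.43%. Rtp4, Ifi44 and Ifit2 have no overlap here either, which follows from the 12 mice since only controls were removed; among the 10 mice this holds for 0.538% of all genes.

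Compared with the 12 mice, the log2 fold change moved by more than its standard error there in 1 member, Irf9. Rtp4 was at 0.62, Ifi44 at 0.91, Ifit3 at 0.80 and Ifit2 at 0.62. Irf7 was at 0.64 and Isg15 at 0.59, each, as Ifit3, with an exact permutation p of 0.0190. Bst2 was at 0.37 and Ifit3b at 0.67, both with an exact permutation p of 0.0286, and Usp18 at 0.59 with an exact permutation p of 0.0667. Among the other transcription factors, the log2 fold change was 0.18 for Stat2 (exact permutation p = 0.305), 0.20 for Irf9 (p = 0.419) and 0.12 for Irf1 (p = 0.343). It was 0.67 for Oas3 (standard error 0.53), 0.46 for Mx1 (standard error 0.54) and 0.28 for Trim30a (standard error 0.35), all smaller than in the 12 mice.

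With AAV-Notum-2032 left out of these 10, 8 members had an unadjusted p under 0.05, beside 3.02% of all genes, and the median log2 fold change was 0.21. Without both mice with more than 1 CPM of Notum it was 6 members (Ifit2, Ifit3, Isg15, Irf7, Ifi44 and Rtp4), beside 2.3% of all genes, with a median of 0.16. In all 12 mice with the mean level of B and T cell markers as a covariate, 34 members were higher, the median was 0.27, and 9 members had an unadjusted p under 0.05, beside 4.45% of all genes. When the integrity number of the RNA was added to the fit, the count was 12 members, beside 2.98%. A set of 9 genes, Ifit2, Ifit3, Ifit3b, Isg15, Usp18, Irf7, Ifi44, Bst2 and Rtp4, had an unadjusted p under 0.05 by edgeR in all 12 mice, among the 10, with the lymphoid covariate, without AAV-Notum-2032 and without both mice. Of the 15579 genes tested in all 5 of these fits, which share most mice, 1.15% were higher at an unadjusted p under 0.05 in each. The part of lymphoid cells and of the Notum transcript in iWAT in the remaining differences was not tested.

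Other genes of the pathway were taken from fixed lists. Of 21 interferon genes (the ligands), 15 had 0 reads in all 12 mice together, which allows up to 3 reads, or 0.0143 CPM over these libraries, and none could be tested. Ifnb1 had 3 reads in all, and Ifna7, Ifnab, Ifnk and Ifnz 1 each. Ifng, the type II interferon, had 12 reads over the AAV-GFP mice (0 to 7 per mouse) and 28 over the AAV-Notum mice (3 to 6 per mouse). The transcript of a ligand was thus hardly detected in these counts of iWAT at this depth. Trex1, of the sensing list, also had 0 reads in all 12 mice. Since the counting program and annotation are not known, a 0 could also come from the counting.

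Of 15 receptor and signalling genes, 2 were higher and 2 lower at an unadjusted p under 0.05, where 4.64% of all genes were higher and 9.54% lower. The 2 lower are near the share over all genes. Ifnar2, a chain of the receptor, was among the higher genes, with a log2 difference of 0.12 (exact permutation p = 0.00866). The other chain, Ifnar1, had a difference of 0.16 (exact permutation p = 0.165). Ifngr1, of the type II receptor, differed by -0.31 (exact permutation p = 0.0584) and the phosphatase gene Ptpn11 by -0.32 (p = 0.0671). Of 18 tested genes for nucleic acid sensing, 1 was higher, the adaptor Myd88 (0.31, exact permutation p = 0.0152), and 0 lower, which is near the share over all genes. Next were Samhd1 (0.56, exact permutation p = 0.113) and the kinase Tbk1 (0.15, p = 0.123).

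Of 44 further interferon-induced genes tested, 8 were higher and 2 lower at an unadjusted p under 0.05, beside 4.64% and 9.54% of all genes, with a median log2 fold change of 0.44. Nmi, a binding partner of Ifi35, had the smallest p (0.37, adjusted p = 0.160 by edgeR; exact permutation p = 0.00216), and its groups did not overlap. Next were Cmpk2, beside Rsad2 in the genome (0.53, exact permutation p = 0.00866), and Gm12250, an interferon-induced GTPase gene (0.79, p = 0.00216), also without overlap. The lower 2 were Trafd1 (-0.27) and Ifitm2 (-0.32), named after their values were seen. Among the 10 mice, Nmi, Cmpk2 and Gm12250 were the 3 that were higher and Trafd1 and Ifi204 the 2 that were lower, beside 2.16% and 4.95% of all genes, and the median was 0.23.

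The members varied together across mice. Over the 12 mice the median Pearson correlation of log2 CPM between pairs of members was 0.73, from -0.16 (Trim30a and Isg20) to 0.98 (Oasl1 and Oas3). Outside the lists, the genes most like the mean of the 35 were Mitd1 (r = 0.97), Ogfr (0.94), Trim30c (0.94), Rpia (0.93) and Zcchc2 (0.93). The log2 fold changes of these genes were 0.39, 0.23, 0.96, 0.31 and 0.24. All these correlations are a description over 12 mice that differ in group, depth and lymphoid content.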

How the data were processed

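RNA-seq was made from iWAT of 12 mice, grouped by their labels. TruSeq libraries were read by the authors as 50 bp single ends on a HiSeq4000. They checked the reads with FastQC, mapped them to mm10 with STAR 2.3.1 and tested them with DESeq2. The authors deposited a table of raw counts per gene, used for the results, and a table of log2 values of normalized counts, used as an alternative. The counting program, annotation and strand setting are not given in the sources used here. The deposited log2 values undo to whole reads for 100% of the values (tolerance 0.02), from a separate count: no member had the same reads in all mice, and totals differed by up to 14.7% (Ifi35). No per-sample column was left out (0 columns).

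The raw counts were fitted in edgeR 4.0.16 (R 4.3.3): filterByExpr (minimum count 10, minimum total 15), TMM, glmQLFit and a two-sided glmQLFTest, with Benjamini-Hochberg adjustment over all genes tested at 0.05. Standard errors are the absolute log2 fold change over the square root of F. Log2 CPM carry a prior count of 2. Exact permutation tests were two-sided, on mean log2 CPM, over 924 assignments of 12 mice or 210 of 10. The fits were tested on simulated data. Exon lengths and shared 50-base windows are from GENCODE vM21.

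The members and lists were chosen with earlier results of these data known. Full values are given for the 8 members of smallest p and for Irf1, Irf7, Irf9 and Stat2; from other lists, for ligands with reads, Ifnar1, Ifnar2 and the 3 genes of smallest p, and for the 5 genes most like the members. A gene of the signalling list is counted but not reported here. Alternatives were DESeq2 1.42.0, limma-voom (limma 3.58.1), RLE size factors, other filters, covariates, the normalized values, Cd79a above 1 or 50 CPM, and each mouse left out. The muscle and hepatocyte covariates, and leaving out AAV-Notum-2032 among the 10 mice or the 2 mice with more than 1 CPM of Notum, were chosen after seeing the data. Plots used matplotlib 3.10.9 under Python 3.11.15.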

Additional observations from a re-analysis of the deposited data

Results flagged for a closer look

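In 70 groups (35 genes in 2 groups of 6 mice), the highest or lowest mouse was set against the group's range with Dixon's ratio at its 95% critical value. Chance gives about 1 in 20, or 3.5, and 7 stood apart, 5 of them AAV-Notum-2032. In that mouse Ifit2 was at 56.1 CPM (25.7 to 33.8 in the other 5 AAV-Notum mice) and Mx2 at 15.6 CPM (5.57 to 8.18). Oas2 was at 61.4 CPM there (24.8 to 35.9), Stat2 at 124 CPM (71.2 to 90.8) and Dtx3l at 109.9 CPM (78.2 to 87.1). In AAV-GFP mice, Bst2 was at 74.4 CPM in AAV-GFP-2013 (56.3 to 62.9 in the others) and Xaf1 at 35.9 CPM in AAV-GFP-2022 (26.5 to 30.0). What sets AAV-Notum-2032 apart was not tested.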

How the results depend on the processing

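The direction of each of the 11 genes named with full values stayed the same in all 242 comparisons in 12 mice (22 settings) and all 220 among the 10 mice (20 settings). In 9 of the 242 a gene passed an adjusted p of 0.05: the 8 genes by DESeq2, and Rtp4 without AAV-GFP-2022. In 12 mice, DESeq2 called 8 members at an adjusted p of 0.05, against 0 by edgeR; the cause was not tested. Members higher at an unadjusted p under 0.05, 18 in all mice, numbered 9 with the B and T cell covariate and 9 without the AAV-Notum mice with more than 1 CPM of Notum. Members without overlap, 3 in all mice, numbered 5 with RLE size factors and 5 with the normalized table. Leaving out each mouse in turn gave 0 to 1 members at an adjusted p of 0.05 (1 without AAV-GFP-2022), 12 to 28 at an unadjusted p (12 without AAV-Notum-2032, 28 without AAV-GFP-2022, where 10.3% of all genes were higher, against 4.64% in all mice) and 3 to 6 without overlap (6 without AAV-GFP-2013, 5 without AAV-Notum-2031, AAV-Notum-2033 or AAV-Notum-2042). The median log2 fold change was then 0.37 to 0.64, lowest without AAV-Notum-2032. Among the 10 mice, members without overlap, 3 in the comparison as reported, numbered 5 with the normalized table, 6 with Cd79a above 50 CPM and 3 to 6 with each mouse left out (6 without AAV-GFP-2013). For no overlap, the shares over all genes were 0.398% in 12 mice and 0.538% among the 10. They were not taken in the other settings, and leaving mice out can make no overlap more common. The changes in these counts thus cannot be set against all genes. Members at an unadjusted p under 0.05 numbered 6, against 10, without the mice with more than 1 CPM of Notum, and the median with each mouse left out was 0.21 to 0.48. The causes were not tested. Cd79a above 1 CPM keeps the same 10 mice. No paired analysis was possible because the labels give the groups no shared mouse numbers. Counts of 25 to 100 reads, as in Oas3 and Mx1 in the lowest mice, carry more counting error than the others.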
